A study of Danio rerio with 8 samples.

Results

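The core factors of nonsense-mediated decay (NMD) are the helicase upf1, its partners upf2, upf3a and upf3b, and the smg proteins. The smg proteins phosphorylate upf1, bind the kinase that does so, or act on upf1 afterwards. The core factors were taken by name from the gene counts of upf1 mutant and wild type zebrafish larvae. Of 9 listed genes, 8 were found among the 31953 genes of the counts table (upf1, upf3a, upf3b, smg1, smg5, SMG6, smg8 and smg9). The listed gene upf2 had no match by symbol in the tables used here and was not analysed here. The larvae were of the TLEK strain and were sampled whole at 5 days after fertilization. Mutants carried a nonsense mutation of upf1 on both chromosomes, and controls were labelled wild type. Each genotype had 4 polyA-selected libraries, in a study of the part upf1 plays in lymphocyte development. The sources used here do not say which codon the allele changes or how many larvae made 1 library. Nothing in the labels says whether the libraries came from separate clutches, so each p-value reflects only how far these libraries vary, which may be technical.

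As background, NMD degrades mRNAs on which translation stops early, and thereby also sets the level of many normal mRNAs. Upf1 binds the terminating ribosome, upf2 and upf3 proteins link it to exon junction complexes that remain downstream of the stop codon, and the kinase smg1 phosphorylates it. Phosphorylated upf1 recruits the endonuclease SMG6 and the adaptor smg5, which lead to cleavage and decay of the mRNA. In mammalian cells several NMD factor mRNAs are themselves NMD substrates.

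Gene counts summed to between 75335048 and 94331733 in mutant libraries and between 86872276 and 96104507 in wild type libraries. Expression is in CPM, the counts relative to each library's scaled total. CPM are not divided by transcript length, so they are compared between libraries and not between genes. In edgeR's quasi-likelihood fit of 23680 genes, 9.12% (2159) passed as higher in mutants and 5.16% (1223) as lower, at a Benjamini-Hochberg adjusted p under 0.05. Single libraries moved these counts: 678 genes were lower when mutant replicate 1 was left out. Leaving out wild type replicate 1 gave 812 lower, leaving out replicate 3 gave 683 lower and 1435 higher, and leaving out replicate 4 gave 675 lower. All 41 matched marker genes of 12 larval organs were detected in the whole body samples. Of these markers 1 was higher and 5 lower in mutants, and the summed skeletal muscle markers lay between 32430 and 40896 CPM in mutants, against 48413 to 63535 CPM in wild types. Summed liver, exocrine pancreas and epidermis markers were also lower in every mutant library than in every wild type library. Among single genes, 8.71% of all those tested had that pattern. Thus 4 of the 12 organ sums did not overlap between genotypes, and the sums of the other organs overlapped. No single exocrine pancreas marker passed. The part of these organ markers in the results on NMD factors was not tested. RNA came from whole larvae, so a change in the share of cells that express a gene and a change in RNA per cell cannot be told apart.

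Of the 8 core factors, 5 were higher in mutants (smg1, upf1, SMG6, smg9 and smg5), 0 were lower and 3 did not pass (upf3a, upf3b and smg8), beside 9.12% of all genes higher. With edgeR 1 factor, smg8, was lower at an unadjusted p under 0.05, beside 3101 of all 23680 genes tested. The DESeq2 Wald test called that 1 factor lower, beside 2107 of the 25530 genes it gave an adjusted p. Limma voom called 0 factors lower, beside 1270 of 23680 genes. The median log2 fold change was 0.73 over the 8 factors and -0.01 over all genes tested. In 5 factors every mutant library lay above every wild type library, as in 12.4% of all genes, and in 1 factor every mutant library lay below, as in 8.71% of all genes. These 5 were called higher in each alternative fit and with any 1 library left out.

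**Figure D1:**
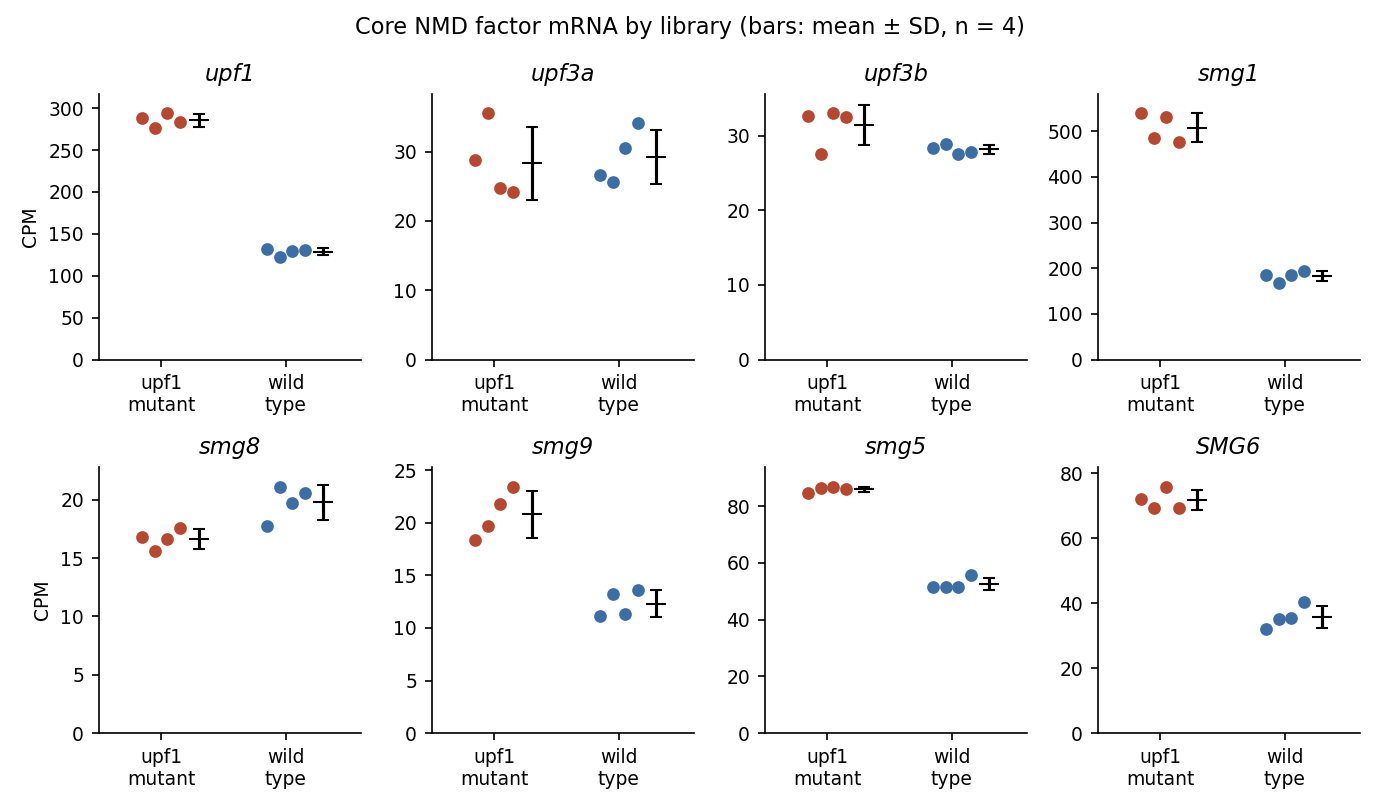
CPM of each core NMD factor (vertical axes from 0) in the 4 upf1 mutant libraries (left) and the 4 wild type libraries (right), 1 point per library, with mean ± SD beside them. Groups are separate for upf1, smg1, SMG6, smg5, smg9 and smg8, with the smg8 points of mutants below those of wild types, and they overlap for upf3a and upf3b.

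The mutated gene itself, upf1 (ENSDARG00000016302, chromosome 2), encodes the RNA helicase at the centre of the pathway. Its level was 287.9, 276.1, 293.9 and 283.6 CPM in mutant replicates 1 to 4, against 132.5, 122.6, 130.1 and 130.5 CPM in wild type replicates 1 to 4. Means were 285 ± 7.51 CPM in mutants and 129 ± 4.35 CPM in wild types (SD, n = 4 each), and the lowest mutant library was 2.08 times the highest wild type library. The log2 fold change was 1.15 (SE 0.0699, edgeR adjusted p = 8.34e-06). Replicate error was small, with a coefficient of variation of 2.63% in mutants and 3.37% in wild types, on 22989 to 27868 counts per mutant library and 10521 to 11187 per wild type library. The counts cover the whole gene, so they do not separate mutant from wild type mRNA and do not check the genotype labels.

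The upf3 paralogs, which bridge upf2 to the exon junction complex, did not pass the test. For upf3b (ENSDARG00000000489, chromosome 14), mutant libraries had 32.7, 27.5, 33.0 and 32.5 CPM, against 28.3, 28.8, 27.5 and 27.8 CPM in wild type libraries. Mutant replicates 1, 3 and 4 lay above every wild type library and mutant replicate 2 lay below every wild type library. The log2 fold change was 0.16 (SE 0.0788, edgeR adjusted p = 0.214), and without mutant replicate 2 it was 0.22 with an adjusted p of 0.0697. For upf3a (ENSDARG00000069297, chromosome 9), mutant libraries had 28.7, 35.5, 24.8 and 24.2 CPM, against 26.6, 25.6, 30.5 and 34.2 CPM in wild type libraries. The groups overlapped fully, with a log2 fold change of -0.05 (SE 0.140, edgeR adjusted p = 0.863). The spread of upf3a was the widest of the 8 factors in both genotypes, with a coefficient of variation of 18.5% in mutants and 13.3% in wild types.

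The kinase gene smg1 (ENSDARG00000054570, chromosome 3), whose product phosphorylates upf1, had the largest rise of the 8 factors. Its level was 539, 484, 532 and 476 CPM in mutant libraries, against 186.2, 167.8, 186.1 and 194.5 CPM in wild type libraries. All mutants stood far above all wild types, the lowest mutant library at 2.44 times the highest wild type library. The log2 fold change was 1.47 (SE 0.0878, edgeR adjusted p = 7.57e-06), which placed smg1 at percentile 98.1 of all genes tested.

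The partners of the kinase moved differently from each other. Smg8 and smg9 proteins bind smg1 and hold its activity back in human cells. For smg9 (ENSDARG00000076627, chromosome 16), mutant libraries had 18.4, 19.7, 21.8 and 23.4 CPM, against 11.1, 13.2, 11.3 and 13.6 CPM in wild type libraries. The groups did not overlap, and the log2 fold change was 0.76 (SE 0.110, edgeR adjusted p = 0.00194). For smg8 (ENSDARG00000061378), mutant libraries had 16.8, 15.6, 16.6 and 17.6 CPM, against 17.7, 21.1, 19.7 and 20.5 CPM in wild type libraries. Every mutant library was below every wild type library in CPM, but mutant replicate 4 and wild type replicate 1 lay close together. Mutant replicate 4 had 1690 smg8 counts of 94331733, and wild type replicate 1 had 1493 of 87715388. Relative to these unscaled totals their order is reversed and the groups overlap. The smg8 log2 fold change was -0.25 (SE 0.0853), which did not pass in edgeR (adjusted p = 0.0838, and 0.0622 to 0.189 with 1 library left out) and passed in the DESeq2 Wald test (adjusted p = 0.0407).

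Both of the core factors that act on phosphorylated upf1, SMG6 and smg5, were higher. SMG6 (ENSDARG00000100481), the endonuclease that cuts the target mRNA, had 72.0, 69.4, 75.9 and 69.4 CPM in mutant libraries, against 32.0, 35.0, 35.5 and 40.3 CPM in wild type libraries. The lowest mutant library was 1.72 times the highest wild type library, and the log2 fold change was 1.00 (SE 0.0828, edgeR adjusted p = 5.79e-05). The adaptor gene smg5 (ENSDARG00000041481, chromosome 16) had 84.6, 86.3, 86.8 and 85.9 CPM in mutant libraries, against 51.5, 51.5, 51.5 and 55.7 CPM in wild type libraries. Mutant libraries differed from each other by a coefficient of variation of only 1.11%, and the log2 fold change was 0.71 (SE 0.0620, edgeR adjusted p = 8.24e-05).

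Ratios between factors within a library do not depend on the scaling between libraries, and 3 of them were compared with a two-sided exact permutation test over the 8 libraries, for which 0.0286 is the smallest p possible. On the log2 scale, smg1 over the mean of smg8 and smg9 was 4.90, 4.75, 4.77 and 4.52 in mutant libraries, against 3.68, 3.29, 3.60 and 3.50 in wild type libraries. The difference was 1.22 (exact permutation p = 0.0286, 0.0429 adjusted over the 3 ratios), so the kinase mRNA rose relative to its partners in 4 of 4 mutants. The ratio of smg5 to SMG6 was 0.23, 0.31, 0.19 and 0.31 in mutant libraries, against 0.67, 0.55, 0.53 and 0.46 in wild type libraries. SMG6 thus rose more than smg5, with a difference of -0.29 in the log2 ratio (exact permutation p = 0.0286, adjusted 0.0429). The ratio of upf3b to upf3a was 0.18, -0.37, 0.41 and 0.42 in mutant libraries, against 0.09, 0.17, -0.15 and -0.29 in wild type libraries. Its groups overlapped, and the difference of 0.21 was smaller than the spread within mutants (SD 0.37, exact permutation p = 0.314, adjusted 0.314). With 1 library left out it ranged from 0.12, without mutant replicate 3 or 4, to 0.38, without mutant replicate 2 (exact permutation p = 0.0571, the smallest possible with 7 libraries). Other pairs of factors were not compared by a test.

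**Figure D2:**
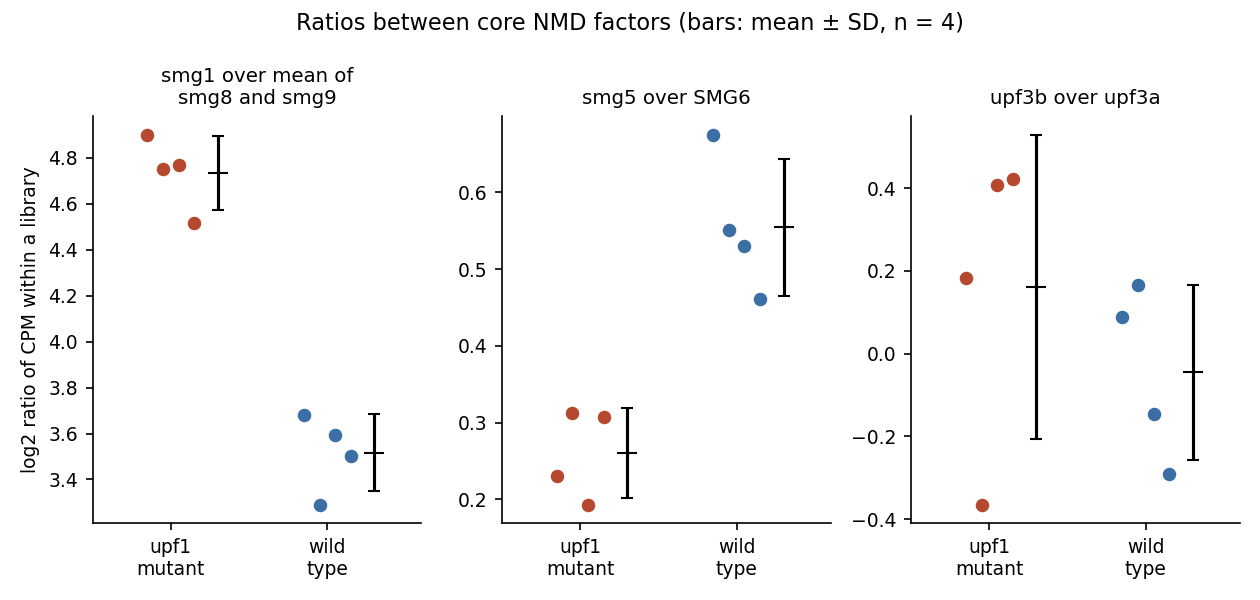
Log2 ratio of CPM between core NMD factors within each library, for 4 upf1 mutant libraries (left) and 4 wild type libraries (right), with mean ± SD. The vertical axes do not start at 0. Mutants are all higher for smg1 over smg8 and smg9, all lower for smg5 over SMG6, and overlap wild types for upf3b over upf3a.

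Genes with the profile most like those of upf1 and smg1 were sought among 17801 other named genes, by the root-mean-square difference of log2 CPM over the 8 libraries after each gene was centred on its wild type mean. Closest to upf1 was btaf1, an ATPase that acts on the TATA-binding protein, at a difference of 0.0338, with 153 to 159 CPM in mutants and 66.3 to 70.4 CPM in wild types. The splicing regulator gene srsf10a followed at 0.0627, with 56.9 to 63.4 CPM in mutants and 25.2 to 27.3 CPM in wild types. The RNA helicase gene dhx9 came next at 0.0638, with 129 to 146 CPM in mutants and 59.7 to 62.8 CPM in wild types. Closest to smg1 were the splicing factor gene zrsr2 (0.0944), the zinc finger gene ZXDC (0.0962) and si:ch211-13c6.2 (0.102). These likenesses are descriptions of the same 8 libraries and carry no test.

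The rest of the pathway was described with a list of exon junction, release factor, decapping and decay genes, of which 43 were matched and tested. Of these, 5 were higher, 3 lower and 35 did not pass, beside 9.12% higher and 5.16% lower over all genes. The median log2 fold change of the list was 0.07. All mutant libraries were above all wild type libraries in 8 of the 43 and below in 5, beside 12.4% and 8.71% of all genes.

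The helicase gene dhx34 and nbas, which both promote NMD in human and nematode cells, were higher. Dhx34 had 12.2, 11.8, 12.2 and 12.1 CPM in mutant libraries, against 7.27, 9.09, 7.57 and 8.37 CPM in wild type libraries (log2 fold change 0.58, SE 0.0977, edgeR adjusted p = 0.00426). Nbas had 41.4, 33.0, 34.8 and 34.5 CPM in mutant libraries, against 26.3, 22.8, 22.3 and 18.2 CPM in wild type libraries (log2 fold change 0.68, SE 0.12, edgeR adjusted p = 0.00538). Neither gene's groups overlapped. The release factor gene etf1a had 5.93, 4.30, 7.33 and 7.26 CPM in mutant libraries, against 2.76, 2.92, 3.31 and 1.93 CPM in wild type libraries (log2 fold change 1.18, SE 0.216, edgeR adjusted p = 0.00654). Its level may be uncertain, since the paralog etf1b could share reads with it, which was not tested. In edgeR etf1b did not pass (adjusted p = 0.134), except without wild type replicate 1 (adjusted p = 0.0317).

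The other risers on the list were the nuclear exonuclease gene xrn2 and the ATPase gene ruvbl1, a partner of smg1 in human cells. Xrn2 lay between 85.7 and 90.0 CPM in mutants and between 68.0 and 70.5 CPM in wild types (log2 fold change 0.33, SE 0.0599, edgeR adjusted p = 0.00663). Ruvbl1 lay between 38.6 and 40.2 CPM in mutants and between 28.0 and 34.3 CPM in wild types (log2 fold change 0.35, SE 0.0790, edgeR adjusted p = 0.0184). The ruvbl1 call was lost without wild type replicate 3 (edgeR adjusted p = 0.0592) or wild type replicate 4 (0.0530). Ruvbl2, also on the list, lay between 29.0 and 36.6 CPM in mutants and between 21.4 and 30.2 CPM in wild types. Its groups overlapped and it did not pass (log2 fold change 0.27, SE 0.119, edgeR adjusted p = 0.168).

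The 3 genes that fell encode RNA-binding proteins of the cytoplasm. Both staufen genes, whose products recruit Upf1 to double-stranded 3' regions in mammalian cells, were among them. For stau2, mutant libraries had 279, 271, 288 and 289 CPM, against 365, 385, 394 and 406 CPM in wild type libraries (log2 fold change -0.46, SE 0.0758, edgeR adjusted p = 0.00391). For stau1, mutant libraries had 151.3, 134, 151.5 and 151.6 CPM, against 175, 189, 187 and 195 CPM in wild type libraries (log2 fold change -0.34, SE 0.0757, edgeR adjusted p = 0.0170). The poly(A)-binding protein gene pabpc1a had 992, 1020.2, 1052 and 1083 CPM in mutant libraries, against 1278, 1348, 1286 and 1287 CPM in wild type libraries (log2 fold change -0.33, SE 0.0838, edgeR adjusted p = 0.0298). Groups did not overlap in any of the 3, but stau1 was lost without wild type replicate 4 (edgeR adjusted p = 0.0533). Pabpc1a kept its call only when mutant replicate 4 or wild type replicate 2 was the library left out, and otherwise had an edgeR adjusted p of 0.0584 to 0.0952. The list had 1 gene lower without wild type replicate 4. Pabpc1a may share reads with its close relatives, which was not tested.

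**Figure D3:**
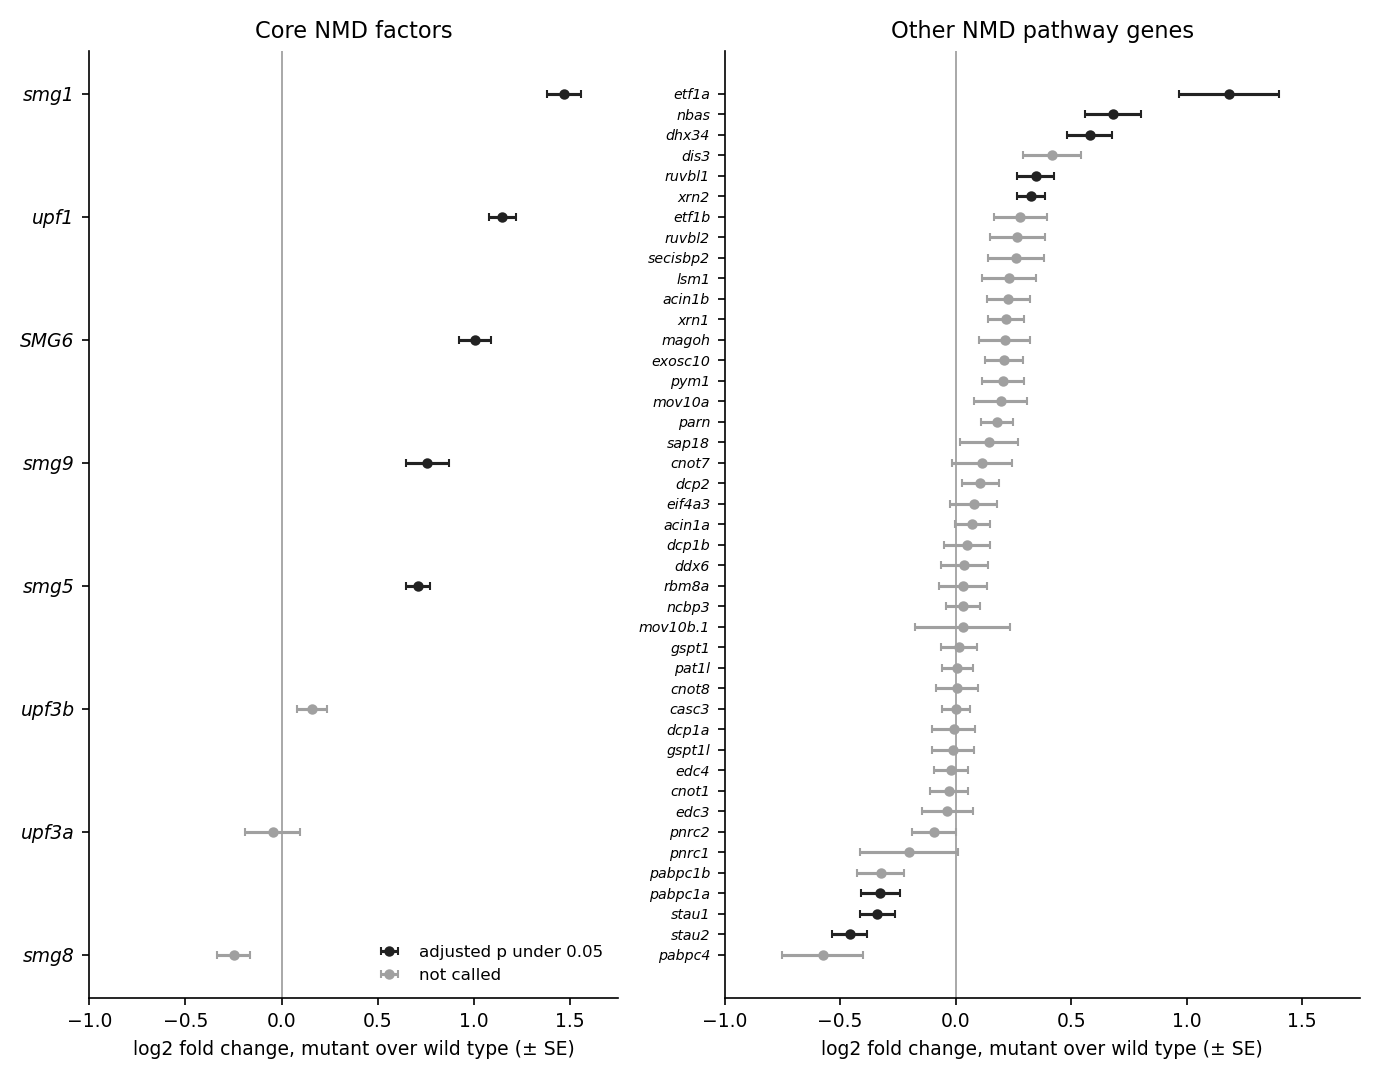
Log2 fold change of CPM, mutant over wild type, with SE as bars, for the 8 core NMD factors (left) and 43 other pathway genes (right), ordered by value. Dark points passed edgeR's test at an adjusted p under 0.05: 5 core factors, all to the right of 0, and 8 other genes, 5 to the right and 3 to the left.

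Splicing was read from the authors' deposited tables, which compare sample set 1 with sample set 2 by junction reads in 5 event classes. Their headers do not name the genotype of either set, so the sets keep these names here. As a description over 7973 genes with at least 800 junction reads, the log2 ratio of junction reads, set 1 over set 2, had a Spearman correlation of 0.926 with the log2 fold change, mutant over wild type, of the gene counts. Over the same genes, each of the 4 libraries of set 1 correlated best with a mutant library of the gene counts. Each of the 4 of set 2 correlated best with a wild type library (correlations with the best library 0.844 to 0.928). Inclusion reads summed over the listed cassette entries were not scaled for library size, and an exon in several entries counted in each. They were 2.95 times as many in set 1 as in set 2 for smg1, 2.44 times for upf1 and 1.78 times for smg5. The ratio was 1.61 for smg9, 1.21 for upf3b and 0.993 for upf3a. The median over genes was 1.07, but it was taken on inclusion plus skipping reads of a single entry per gene.

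The core factors had 20 events, in 6 genes: 4 each in upf1, smg1 and smg5, 3 each in upf3a and upf3b, and 2 in smg9. For SMG6 and smg8 there were 0 events. By class there were 15 cassette exon, 3 mutually exclusive exon, 1 alternative 3' splice site and 1 retained intron entries. None of the 20 (0 events) passed an FDR of 0.05 in the authors' deposited tables, beside 8.84% of all events. By class the share of all events that passed was 8.79% for cassette exons, 7.35% for mutually exclusive exons, 10.2% for alternative 3' splice sites and 14.3% for retained introns. At an unadjusted p under 0.05 there were 2 of 20, beside 13.3% of all events.

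Cassette exons of the core factors were nearly always included. In 14 of the 15 entries the mean inclusion level was at least 0.95 in both sets. The 3 cassette entries of upf1 had mean levels of 0.9995 or more in each set, with 1 skipping read apiece in set 1 and 0 in set 2. Skipping reads were found in set 1 with 0 in set 2 for 12 of the 15 entries, beside 50.7% of all cassette entries. The reverse held for 0 of the 15, beside 12.7% of all, and 3 entries had them in both sets. Set 1 also held more inclusion reads than set 2 in each of these genes except upf3a. The part of that depth was not tested. Set 1 held between 1 and 15 skipping reads in each of the 12, and a count of 0 in set 2 allows up to 3, counting error only. Most of the 12 held only 1 or 2, and the 6 reads of the 79 nt smg5 exon came from a single library. Among the 12, only the 229 nt smg9 exon had skipping reads in every library of set 1. The mutually exclusive entries of upf1, smg5 and upf3b pair exons that each have a cassette entry of their own. In those separate entries each exon was included in nearly all reads.

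The 2 events with an unadjusted p under 0.05 were cassette exons of upf3a and smg9. In upf3a, an exon of 78 nt on the minus strand (GRCz10 chr9:35096676-35096753, a length divisible by 3) had inclusion levels of 0.826, 0.843, 0.721 and 0.886 in set 1, against 0.935, 0.877, 0.853 and 0.887 in set 2. The sets overlapped, and the mean difference in the authors' deposited table was -0.069 (p = 0.00607, FDR = 0.0664). Skipping reads numbered 112 in set 1 and 68 in set 2, beside 1045 and 1048 inclusion reads. The same exon, paired with another neighbouring exon, was listed at 0.997 in set 1 and 1.0 in set 2.

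In smg9, an exon of 229 nt on the plus strand (GRCz10 chr16:24808264-24808492, a length not divisible by 3) had levels of 0.977, 0.976, 0.956 and 0.961 in set 1, against 1.0 in each library of set 2. Skipping reads numbered 2, 2, 6 and 5 in set 1 beside 845 inclusion reads in all, which is 1.78 per 100. In set 2 there were 0 skipping reads beside 548 inclusion reads, which allows up to 0.547 per 100. These ratios of raw reads are not on the scale of the inclusion levels, whose mean in set 1 was 0.9675. Every level of set 1 lay below every level of set 2, as in 6.73% of all cassette entries. In the authors' deposited table the difference was -0.033 (p = 0.00709, FDR = 0.0760).

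**Figure D4:**
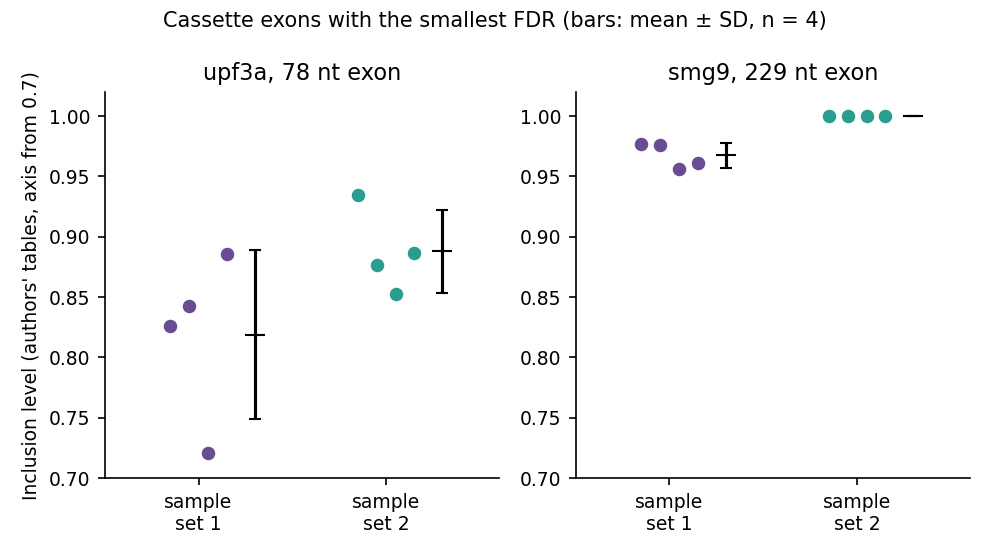
Inclusion level in the authors' tables (vertical axis from 0.7) of the 78 nt exon of upf3a and the 229 nt exon of smg9, for the 4 libraries of sample set 1 (left) and of sample set 2 (right), with mean ± SD. The sets overlap for upf3a, and for smg9 all 4 libraries of set 1 lie between 0.956 and 0.977 while set 2 is at 1.0.

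The smg1 gene had a tandem 3' splice site whose long and short exon forms, 144 and 141 nt, differ by 3 nt (GRCz10 chr3:31015269-31015412, minus strand). The long form had inclusion levels of 0.177, 0.134, 0.135 and 0.133 in set 1, against 0.218, 0.078, 0.199 and 0.183 in set 2. The sets overlapped (FDR = 0.748 in the authors' deposited table). The retained intron entry of upf3a, 660 nt long (GRCz10 chr9:35102765-35103424), was at or below 0.024 in all 8 libraries (FDR = 1.0 in the authors' deposited table).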

How the data were processed

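PolyA RNA of whole larvae was sequenced from stranded libraries, per the labels. The authors deposited raw counts per gene, and per the submitters' processing notes GRCz10 and featureCounts were used. No source used here gives the strand setting of the counting, and overlapping genes cannot be told apart. The deposited splicing tables hold junction counts, inclusion levels, p-values and FDR values, and an inclusion difference score (set 1 minus set 2), per the file headers. The sleuth table was not used, since nothing here ties its transcripts to genes, and so its planned count was not made.

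Symbols came from the splicing tables, else from a table of gene names. The test was edgeR 4.0.16 under R 4.3.3 (TMM, filterByExpr with minimum count 10, quasi-likelihood, Benjamini-Hochberg over all 23680 genes, threshold 0.05), checked on simulated counts. CPM are the deposited counts over TMM-scaled library totals. The SE of an edgeR log2 fold change is its absolute value over the square root of the test's F statistic. It therefore restates the test and is not a separate measure of spread. DESeq2 1.42.0, limma voom (limma 3.58.1), other scaling and filters, a replicate block and leaving out each library were alternatives. Ratios used log2(CPM + 0.5) and scipy 1.17.1. Named genes are the 8 members found, up to 4 list genes per direction by adjusted p, and the 3 closest profiles to upf1 and to smg1. Direct partners were also named. Of the pathway list, 1 gene is not reported here, rnps1 matched ambiguously, ncbp1, ncbp2 and ppp2r1ba had no match by symbol, and magohb matched the magoh gene; these are not in its counts apart from magoh. The members and lists were chosen with earlier results of these data known.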

Additional observations from a re-analysis of the deposited data

Results flagged for a closer look

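In 44 groups of 4 libraries, 6 held a library farther from the nearest other than 0.829 of the group's range. Chance gives about 1 in 20 for a single group. The groups share the same 8 libraries, and pabpc4 was chosen after its values were seen, so 6 of 44 cannot be tested against that rate. They were upf3b in mutant replicate 2 (27.5 CPM, the lowest mutant), smg5 in wild type replicate 4 (55.7 CPM, the highest wild type), stau1 in mutant replicate 2 (134 CPM, the lowest mutant), and pabpc1a (1348 CPM) and pabpc4 (674 CPM) in wild type replicate 2 and etf1b in wild type replicate 1 (222 CPM), each the highest wild type. Mutant replicate 2 also had the smallest total, 75335048 counts.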

How the results depend on the processing

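The 5 core factors called higher were called in every alternative run. The DESeq2 Wald test moved 3 counts of genes lower: 1 core factor (smg8), 5 other pathway genes and 2107 of all genes, against 0, 3 and 1223 in edgeR. The counts over all genes come from unlike sets, 25530 genes with an adjusted p in DESeq2 and 23680 in edgeR. With 1 library left out, all genes lower ranged from 675 to 1279, genes higher from 1435 to 2267, and other pathway genes lower from 1 to 3. The log2 fold change of upf3a, which was not called, ranged from -0.17 to 0.0346, and was 0.0115 without mutant replicate 3 and 0.0237 without mutant replicate 4. The cause was not tested. The smg1 ratio difference ranged from 1.14 to 1.29 and the smg5 to SMG6 difference from -0.32 to -0.25, where no exact p below 0.0571 is possible. Same-numbered mutants and wild types showed little shared deviation (correlations -0.07 to 0.03, against -0.10 to 0.16 for differently numbered pairs). So few correlations cannot decide whether the numbers pair libraries, and the labels do not state it. With the replicate block, 1379 genes were higher and 666 lower, 1 other pathway gene was lower, and ruvbl1 (adjusted p = 0.0632), stau1 (0.0703) and pabpc1a (0.118) did not pass in edgeR. The ratio differences of 1.22 and -0.29 had p = 0.125, the smallest that 4 sign flips allow in an exact permutation test.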

Other observations

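The other cytoplasmic poly(A)-binding protein genes on the pathway list did not pass edgeR's test. Pabpc4 had 421, 253, 380 and 367 CPM in mutant libraries, against 488, 674, 496 and 459 CPM in wild type libraries (log2 fold change -0.58, SE 0.175, edgeR adjusted p = 0.0556). Pabpc1b had 99.8, 113, 114 and 121 CPM in mutant libraries, against 123, 155, 129.8 and 153 CPM in wild type libraries (log2 fold change -0.32, edgeR adjusted p = 0.0584). In both genes every mutant library was below every wild type library in CPM, but relative to unscaled totals the groups overlap. For pabpc4, mutant replicate 1 had 39450 counts of 88911873 and wild type replicate 4 had 38285 of 86872276. For pabpc1b, mutant replicate 2 had 9438 counts of 75335048 and wild type replicate 1 had 10364 of 87715388. The DESeq2 Wald test called both genes lower (adjusted p = 0.0112 and 0.0209). In edgeR pabpc1b passed without wild type replicate 1 (adjusted p = 0.0464). Both were chosen after their values were seen.

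The exon junction genes casc3, eif4a3, magoh and rbm8a did not pass, nor did the decapping genes dcp1a, dcp1b, dcp2, edc3 and edc4 or the decapping adaptor gene pnrc2. Neither edgeR nor the DESeq2 Wald test called any of them.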
